A study of Macaca mulatta with 144 samples.

Results

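The DLK1-DIO3 region is an imprinted stretch of the mammalian genome that holds one of the largest clusters of miRNAs. The members described here were the miRNAs of the deposited count table whose number belongs to that cluster, whatever their letter or arm, taken where any count was listed. Of 908 miRNAs listed in rhesus macaque (NHP) serum, 626 had a count in at least one library and 78 of these were members. A further 4 listed members, miR-487a, miR-323b-5p, miR-380-5p and miR-495-5p, had no count in any library. Of the rule's 44 numbers, 40 had an entry, and miR-300, miR-655, miR-1193 and miR-1197 had none.

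On the chromosome inherited from the father the region expresses protein genes, among them DLK1, RTL1 and DIO3. On the chromosome inherited from the mother it expresses long noncoding RNAs, among them MEG3, and the miRNAs. A first group of miRNAs lies near MEG3 and on the strand opposite to RTL1, whose transcript those miRNAs pair with perfectly in mouse. A second, longer group runs from miR-379 to miR-656 and is known for its expression in brain and placenta and, in rodent neurons, for roles in dendrite growth. In the gene order of RefSeq for the macaque assembly T2T-MMU8v2.0, 47 miRNA genes were found between DLK1 and DIO3, and 45 of them carried a number of the rule. No member with a gene in that annotation lay outside the interval. Within it, 4 hairpins preceded RTL1, and 5 (miR-431, miR-433, miR-127, miR-432 and miR-136) lay inside it. The count table holds no coordinates, so only names and order were taken from this assembly.

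Serum small RNA was sequenced from 36 NHPs (rhesus macaques, 19 males and 17 females) that all received total body irradiation (TBI) with cobalt-60 gamma rays. The radiation dose (RD) ran from 6.0 to 8.5 Gy in steps of 0.5 Gy, with 6 NHPs at each of the 6 levels. Serum was taken at 4 times since irradiation (TSI), once before (labelled day -4) and on days 1, 2 and 6 after, which gave 144 libraries. The label for the risk of radiation-induced fatality (RRiF) named 15 NHPs Survived and 21 Deceased, and Deceased covers animals euthanised as moribund. The animals were naive before the study, and the labels name no other agent. No NHP was left unirradiated, so a change with TSI cannot be told apart from repeated bleeding or from the passage of days. Ages were not in the sample labels. Each library was made from 5 uL of serum, and serum RNA comes from many tissues and blood cells. Fewer cells of a type, less RNA per cell and less release into blood cannot be told apart in such samples.

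The libraries held 11174 to 4118401 counts (median 280254), and 7 of them held fewer than 28025 counts. The library of RA2265F before irradiation and that of RA2694M on day 1 had identical counts and were kept as labelled. miR-486-5p, a red blood cell miRNA, took a median of 69.8 to 73.6% of counts at the 4 time points. Among the 19 libraries with over 1000000 counts, the day 6 library of RA1782F had the cluster profile least like the median profile, and it is described separately. Levels are given as CPM, the read count per standard library size, with sizes scaled by trimmed means of M values (TMM CPM). Levels of single libraries were scaled over all 144, except as follows. Pre-irradiation levels given by RD group or by RRiF were scaled over the 36 libraries of that time point alone. Counts summed per NHP were scaled among the 36 sums. Levels from different scalings are not directly comparable. Precision was limited by counting in the shallow libraries, and PCR duplicates were not removed by molecular identifiers.

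The cluster gave 595306 of the 71861288 counts, and its counts were concentrated in few miRNAs. miR-654-3p alone held 17.0% of cluster counts, and together with miR-410-3p, miR-409-3p, miR-380-3p and miR-381-3p it held 64.9%. miR-410-3p, which in mouse beta cell lines affects insulin secretion, gave 90575 counts, and miR-409-3p gave 76068. The first 9 members held 83.7% and the first 17 held 94.9%. At the other end, 12 members had fewer than 10 counts in all, and 4 were seen in a single library. No member had a count in every library, and 4 members were counted in 140 or more. The number of members counted in a library ranged from 2 to 67 (median 38). A count in at least 40% of libraries was required for testing, and 44 members of 290 miRNAs tested met this. The other 34 members were too sparse and appear below only in the arm counts.

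In level, miR-654-3p had the highest mean, 835 TMM CPM (median 634, range 0 to 3820 over 144 libraries). miR-410-3p followed at a mean of 709 TMM CPM, miR-409-3p at 647, miR-380-3p at 484 and miR-127-3p at 447. miR-127-3p, which in mouse is antisense to Rtl1 and acts on its transcript, was the leading member of the MEG3 and RTL1 side. The next were miR-381-3p at a mean of 395, miR-411-5p at 249, miR-889-3p at 184, miR-369-3p at 152 and miR-431 at 96.6 TMM CPM. miR-369-3p is known in human cells for binding AU-rich elements of TNF mRNA, and miR-431 is a neighbour of miR-127 within RTL1. These means are far apart from the first to the last of the 10, but neighbours in the order overlapped across nearly their whole ranges. High and low levels were mixed along the region. On the MEG3 and RTL1 side, 12 members were tested, and miR-127-3p and miR-431 stood over the rest. On the miR-379 to miR-656 side, 32 were tested. Abundant members such as miR-411-5p, miR-380-3p, miR-654-3p, miR-381-3p and miR-410-3p lay among lower ones, some with means near 2 to 30 TMM CPM. Other neighbours were higher, such as miR-299-3p (mean 85.2) between miR-411 and miR-380, and miR-487b-3p (69.2) beside miR-381. The hairpins of miR-409, miR-369 and miR-410 lay close together.

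**Figure D1:**
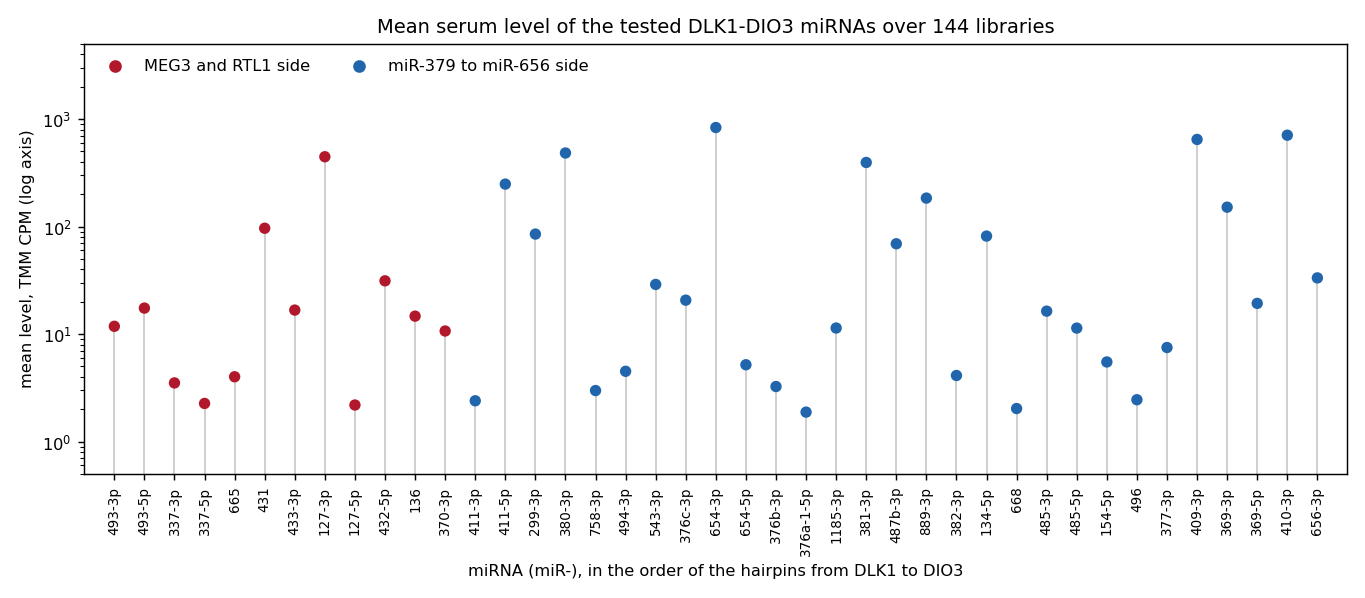
Mean level (TMM CPM, log axis) over 144 libraries of 41 tested DLK1-DIO3 miRNAs, in the order of their hairpins from DLK1 to DIO3, with the MEG3 and RTL1 side in red and the miR-379 to miR-656 side in blue; miR-323a-3p, miR-323b-3p and miR-376a-3p have no single place in the order and are left out. The tallest points, miR-654-3p (835) and miR-410-3p (709), are not neighbours, and low members lie among abundant ones.

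A miRNA hairpin yields 2 mature arms, of which one is usually kept. Both arms were listed for 34 hairpins of the cluster, and the 3p arm led in 28. The 5p arm led in 6, namely miR-411 (99.0% of the counts of both arms), miR-134 (99.3%), miR-154 (99.9%), miR-432 (99.2%), miR-412 (82.9%, from 41 counts) and miR-493 (58.2%). miR-134, known in rat neurons for limiting dendritic spine size, was counted almost wholly as its 5p arm in each of the 75 libraries with at least 20 counts of the pair. The hairpins with most counts were nearly pure, since miR-410 was 99.99% and miR-409 99.96% 3p. miR-493 was the most even, with a median 5p share of 57.1% (range 35.7 to 81.0%) over 42 libraries. In miR-485 the 3p arm held 62.4% of counts, and the 5p share ran from 0 to 86.4% over 33 libraries. miR-337 was 61.4% and miR-377 74.8% 3p, and miR-369 kept a 5p minority of 10.1%. miR-379, the first hairpin of the long group, gave only 250 counts of its 3p and 38 of its 5p arm. For miR-411, the 5p arm led in 111 of 112 libraries. The exception was the day 6 library of RA1782F, where it was 34.8%. The table lists near-identical members separately, such as miR-376a-1-5p and miR-376a-2-5p or miR-329-1-5p and miR-329-2-5p, and reads can be split among such copies.

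The summed cluster took a median of 0.474% of library counts, with a range from 0.00428% in RA2689M on day 1 to 4.05% in RA2116F on day 1. The median share of pre-irradiation libraries was 0.667%, and those of days 1, 2 and 6 were 0.345, 0.517 and 0.412%. The share was lower than the NHP's own pre-irradiation share in 21 of 36 NHPs on day 1, in 23 on day 2, and by day 6 in 25. The 4 time points overlapped over most of their ranges, as the plot of the share by time point shows. Within one NHP, the highest of the 4 libraries exceeded the lowest by a median of 12.4-fold (range 2.32 to 205-fold). Shares before irradiation and on day 2 correlated over NHPs with a Spearman rho of 0.42, and before irradiation and on day 6 with 0.38, while the other pairs of time points lay between -0.08 and 0.16 (36 NHPs each, as a description). By RD the median share was 0.248% at 6.0 Gy, 0.274% at 6.5, 0.428% at 7.0, 0.452% at 7.5, 0.620% at 8.0 and 0.692% at 8.5 Gy, over 24 libraries each. The mean shares in the same order were 0.845, 0.557, 0.649, 0.618, 0.697 and 1.29%. Without miR-486-5p in the denominator the medians were 1.25, 1.26, 1.95, 1.63, 1.92 and 2.90%. Neither of these summaries rose at every step. These RD groups included the pre-irradiation libraries and were uneven in sex, and their ranges overlapped throughout. Over the same libraries the myeloid list had median shares of 0.0243, 0.0367, 0.0489, 0.0392, 0.0549 and 0.0880% from 6.0 to 8.5 Gy, and the red blood cell list 87.4, 81.8, 74.9, 81.2, 76.6 and 79.7%. The haemolysis score, described below, had its lowest median, 3.29, at 8.5 Gy and lay between 3.68 and 4.10 at the other RDs, and the part of these markers in the share was not tested. Because the share is a score over the members, no test was run on it.

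**Figure D2:**
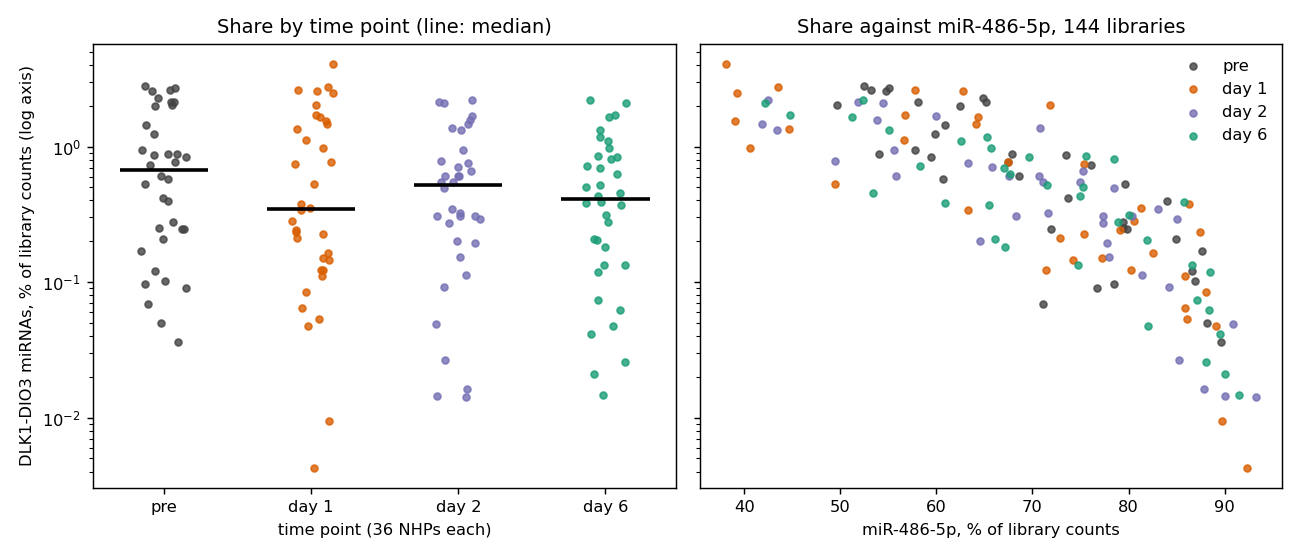
Left, share of the DLK1-DIO3 miRNAs in library counts (percent, log axis) in each of 36 NHPs by time point, with the median as a line. Right, the same share against the percent of counts taken by miR-486-5p in the 144 libraries; the shares overlap among time points (medians 0.345 to 0.667%) and fall as miR-486-5p takes more of the library.

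The share moved with markers of blood cells. Across the 144 libraries its Spearman rho was -0.85 with the percent of miR-486-5p, and -0.67 when miR-486-5p was left out of the denominator. Within single time points the rho with miR-486-5p lay between -0.83 and -0.88. With the haemolysis score, which is the log2 ratio of red cell miR-451 to miR-23a-3p, it was -0.56 over all libraries, -0.61 in pre-irradiation libraries and -0.55, -0.71 and -0.28 in those of days 1, 2 and 6. The library total had a rho of 0.12. Of the red blood cell list, 5 of 5 miRNAs had counts, and their summed share was 46.5 to 98.3% of a library (rho with the cluster share -0.86). Of the myeloid list, both miR-223 and miR-142-3p had counts, together 0 to 0.410% (rho 0.91), and the platelet and endothelial list (4 of 4) took 0.00248 to 1.61% (rho 0.86). The lymphocyte list (4 of 4) took 0.0209 to 3.53% (rho 0.58), the epithelial list (6 of 7 listed) 0 to 0.168% (rho 0.59), and the liver list (2 of 4 listed) 0 to 1.79% (rho 0.53). The muscle list (2 of 4 listed) reached 0.158% (rho 0.35), and the neuron list was represented by 1 of its 6 names, which reached 0.00674% (rho 0.44). All of these are shares of the same libraries, so that a rise of 1 lowers the others, and their part in the results below was not tested beyond the fits named there.

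Members varied together from library to library. Of 151 miRNAs counted in at least 80% of libraries, 17 were members, and their 136 pairs had a median Spearman rho of 0.67 between log2 levels (range 0.18 to 0.89). Over 0.5 lay 84.6% of member pairs. The 2278 pairs of a member with another miRNA had a median of 0.06, and the 8911 pairs of other miRNAs 0.09. After time point and library total had been fitted out, the medians were 0.64, 0.14 and 0.15. Within time points the member pairs had medians of 0.71 (pre-irradiation), 0.73 (day 1), 0.60 (day 2) and 0.61 (day 6). Without TMM factors, the 3 medians were 0.88, 0.67 and 0.61. The points share libraries, depth and composition, and the correlations are given as a description.

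miR-410-3p lay nearest to the rest, with a median rho of 0.78 to the other members and 0.89 with miR-889-3p. miR-323b-3p (0.76) and miR-409-3p (0.73) came next. miR-127-3p had the lowest median, 0.47, and its rho with miR-323a-3p, 0.18, was the lowest of all member pairs. The median differed little with distance along the region. Pairs 1 to 5 hairpins apart had a median of 0.64 (20 pairs), those 6 to 15 apart 0.68 (28 pairs), and those 16 or more apart 0.69 (56 pairs). The 2 arms of miR-369, the only hairpin with both arms in this set, had a rho of 0.37. The other miRNAs with the highest median rho to the members were miR-187-3p (0.63), miR-148a-5p (0.61), miR-4446-3p (0.58), miR-130a-3p (0.58) and miR-21-5p (0.58). Those with the lowest were miR-486-5p (-0.55) and miR-92a-3p (-0.54), both of the red blood cell list.

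**Figure D3:**
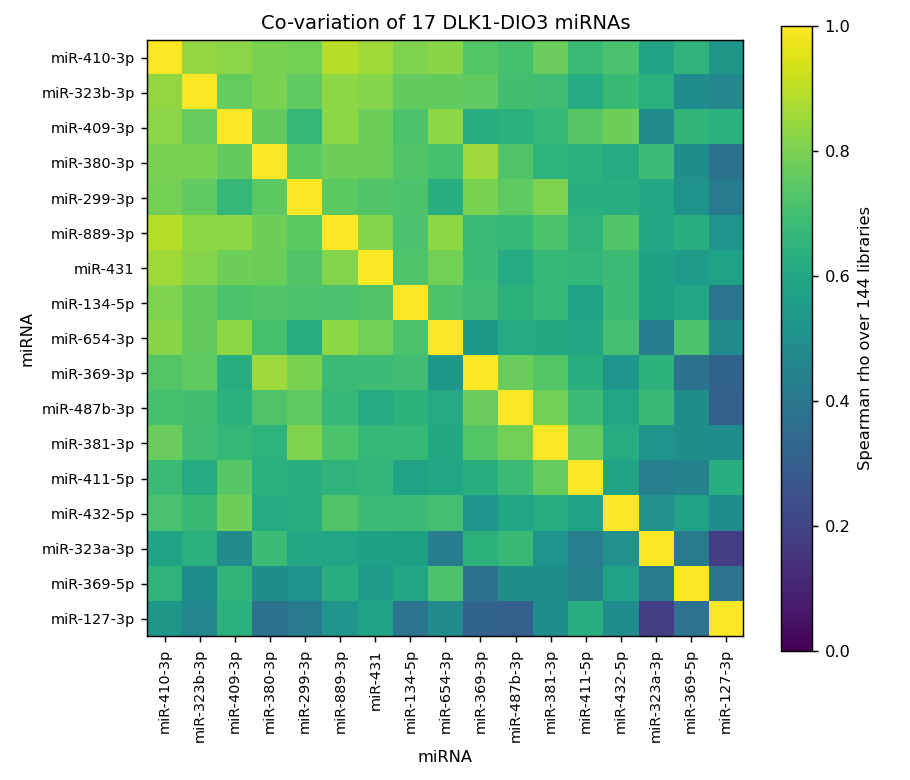
Spearman rho between the log2 levels of 17 DLK1-DIO3 miRNAs over 144 libraries, ordered by their median rho to the others. miR-410-3p (median 0.78) is at the top and miR-127-3p (0.47) at the bottom; the darkest cell, 0.18, is the pair of miR-127-3p and miR-323a-3p.

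The first question was whether members changed with TSI. Day 1 called none of the 44 members, against 6.21% of all 290 miRNAs tested (edgeR quasi-likelihood test, Benjamini-Hochberg adjusted p under 0.05). At an unadjusted p under 0.05 the members again gave 0, against 13.4% of all, and DESeq2 called 0. Of the 44, 25 had a lower estimate and 19 a higher one, with a median log2 (Fold change) of -0.04. The estimate with the smallest p was that of miR-496. Its level was 0 to 31.0 TMM CPM before irradiation (median 0.919) and 0 to 15.8 on day 1 (median 0). Its estimated log2 (Fold change) was -0.82, with an SE of 0.44 and an adjusted p of 0.396. The groups overlapped, and 24 of 36 day 1 libraries were at 0. miR-758-3p, which represses the cholesterol exporter ABCA1 in human and mouse cells, had -0.60. On the higher side stood miR-376b-3p, of a family edited by ADAR enzymes in brain, with 0.63, and miR-485-3p with 0.47. miR-409-3p (-0.10), miR-376c-3p (0.33), miR-377-3p (0.55), miR-432-5p (-0.06) and miR-493-3p (0.07) had adjusted p from 0.713 to 0.976 on this day. They are some of the cluster members named in the study's text or supplement, which names others as well.

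Day 2 called none of the 44 members by adjusted p, against 0.690% of all tested miRNAs, and DESeq2 called 0. At an unadjusted p under 0.05, 5 members differed, against 11.0% of all, and all 5 were lower, against 4.83% of all lower. The 5 were miR-323a-3p, miR-485-5p, miR-380-3p, miR-382-3p and miR-654-5p. miR-323a-3p was at 0 to 125 TMM CPM before irradiation (median 21.7) and at 0 to 49.9 on day 2 (median 11.4). Its log2 (Fold change) was -0.81 (SE 0.32, adjusted p = 0.229). In own pairs it was lower in 24 of 36 NHPs, and the ranges overlapped. miR-485-5p, known in rat neurons for limiting spine density, went from a median of 11.1 (0 to 78.4) to 5.00 (0 to 25), with an estimate of -0.87 (SE 0.35, adjusted p = 0.229). These shifts were smaller than the spread between libraries allowed to be called. Over the cluster, 37 of 44 estimates were lower, with a median of -0.31, beside 155 of 290 and -0.07 for all miRNAs. Members varied together from library to library, so such numbers of members, here and in the other comparisons, do not count independent results. The number lower was 37 with TMMwsp factors, 37 with RLE factors and 39 without TMM factors. On the higher side only 7 members lay, led by miR-377-3p (0.57) and miR-1185-3p (0.12), and the latter was -0.076 without TMM factors and -0.0024 without RA0521F.

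Day 6 was the time point with called members. Of the 44, 1 rose and 1 fell, against 7.24% of all 290 tested. miR-382-3p was at 0 to 34.0 TMM CPM before irradiation (median 4.66) and at 0 to 19.3 on day 6 (median 0). It gave 252 counts over the 36 pre-irradiation libraries and 73 over those of day 6. The day 6 libraries with no count numbered 20, against 10 before irradiation. In own pairs it was lower in 24 NHPs, higher in 5 and equal in 7, with a mean log2 change of -1.04 ± 1.80 (SD, n = 36). Its log2 (Fold change) was -1.16 (SE 0.39, adjusted p = 0.0499, edgeR), and with the animal as a block -1.24 (adjusted p = 0.079).

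miR-377-3p, which raises fibronectin in human and mouse mesangial cells of the kidney, was at 0 to 52.2 TMM CPM before irradiation (median 3.64) and at 0 to 62.8 on day 6 (median 4.99). It gave 186 counts before irradiation and 223 on day 6. The ranges overlapped almost wholly, and in own pairs 16 NHPs were higher, 16 lower and 4 equal, with a mean log2 change of 0.29 ± 2.42 (SD, n = 36). Its log2 (Fold change) was 1.08 (SE 0.36, adjusted p = 0.0499, edgeR), and with the animal as a block 0.60 (adjusted p = 0.485). Neither call was stable. With one NHP left out at a time, both remained in 4 of 36 fits (without RA0521F, RA2689M, RA2694M or RA2733F), miR-377-3p was lost in 25 and miR-382-3p in 22. The alternative fits called 0 or 1 member. With the haemolysis score as a term, miR-377-3p was 1.13 (adjusted p = 0.0319) and miR-382-3p -0.95 (adjusted p = 0.0781).

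Markers of blood cells also differed in median between time points. The summed red blood cell list took 75.6% of counts in pre-irradiation libraries and 80.2, 79.1 and 78.1% in those of days 1, 2 and 6. The lymphocyte list, which holds miR-150-5p, took 0.248% and then 0.147, 0.115 and 0.101%. The platelet and endothelial list took 0.265% and then 0.218, 0.244 and 0.208%. Apart from the fit with the haemolysis score, the part of these markers in the member values was not tested.

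Among the abundant members on day 6, miR-380-3p went from a median of 405 to 323.2 TMM CPM, and its log2 (Fold change) was -0.80 (SE 0.33, adjusted p = 0.131). miR-127-3p stayed near its level, with medians of 391 and 393 TMM CPM and ranges of 80.7 to 1541 and 125 to 3187. Its log2 (Fold change) was 0.52 (SE 0.23, adjusted p = 0.182), 0.32 without the day 6 library of RA1782F, and -0.14 without TMM factors. Estimates were lower in 26 of 44 members, with a median of -0.11 against -0.04 for all miRNAs. On the MEG3 and RTL1 side 8 of 12 were higher, and on the miR-379 to miR-656 side 22 of 32 were lower. This split was read off the estimates and was not tested, and without TMM factors 40 of the 44 were lower. Omitting the TMM factors also moved the median of all miRNAs, from -0.04 to -0.38.

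**Figure D4:**
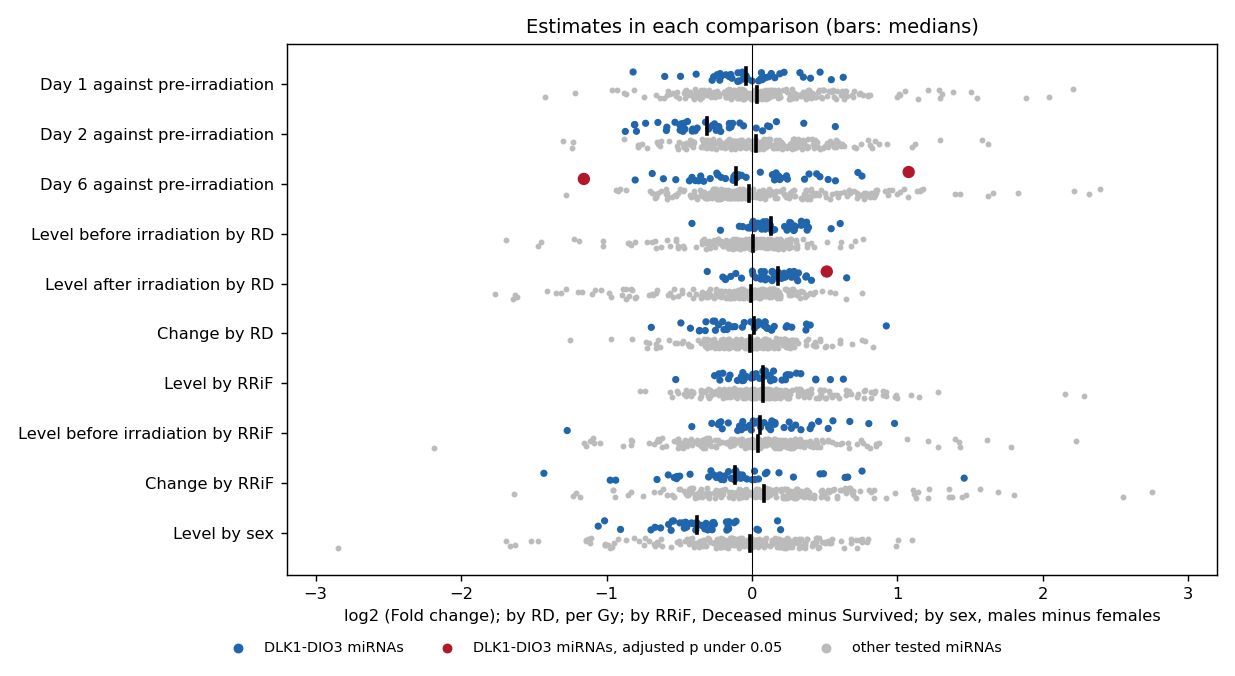
Estimates (log2 fold change, for RD per Gy) of the 44 tested DLK1-DIO3 miRNAs (blue, called members red) and of the other tested miRNAs (grey) in each comparison, with bars at the medians; 2 other miRNAs lie outside the axis. The called members are miR-382-3p (-1.16) and miR-377-3p (1.08) on day 6 and miR-381-3p (0.51 per Gy) by RD after irradiation.

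The second question was whether levels went with RD. Sex was uneven over RD and was not a term in these fits, so RD and sex cannot be told apart wholly here. Before irradiation, when no dose had been given, 0 members were called and 0% of all tested (DESeq2 also 0 members), while 3 members against 8.62% of all passed an unadjusted p under 0.05. These were miR-377-3p with 0.61 per Gy (SE 0.24, adjusted p = 0.324), miR-376c-3p with 0.54 (SE 0.22, adjusted p = 0.324) and miR-654-3p with 0.36 (SE 0.18, adjusted p = 0.578). miR-376c-3p had pre-irradiation medians of 6.30, 13.2, 21.2, 4.10, 16 and 44.8 TMM CPM from 6.0 to 8.5 Gy, and the groups overlapped. Positive slopes before irradiation were found in 37 of 44 members, beside 162 of 290 miRNAs, and the steepest negative ones were those of miR-376a-1-5p (-0.41) and miR-136 (-0.22).

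After irradiation, with the counts of days 1, 2 and 6 summed for each NHP, 1 member was called, against 11.0% of all tested (4 higher and 28 lower with RD). This was miR-381-3p, one of the members that in rat neurons are needed for activity-dependent dendrite growth. From 6.0 to 8.5 Gy its medians were 310 (155 to 546), 313 (246 to 625), 338 (228 to 840), 584 (146 to 1196.6), 427 (265 to 760) and 774 (336 to 1887) TMM CPM, with 6 NHPs at each RD. The highest medians were at 7.5 and 8.5 Gy, that at 8.0 Gy was lower than both, and all 6 ranges overlapped. Its slope was 0.51 per Gy (SE 0.13, adjusted p = 0.00687, edgeR). In the same NHPs before irradiation the medians were 256, 280, 516, 242, 324 and 319 TMM CPM. These were scaled over all 144 libraries and the summed levels among themselves, so the sizes of the 2 sets cannot be compared directly.

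The slope of miR-381-3p depended on how the 3 libraries of an NHP were weighed. The deepest of the 3 held a median of 60.4% (40.6 to 92.8%) of an NHP's summed counts. With each library weighing the same (limma on mean log2 levels, an alternative chosen after seeing the data), the slope was -0.015 per Gy (adjusted p = 0.980), and without the 7 shallow libraries 0.06 (adjusted p = 0.950). Without RA2116F, the highest NHP at 8.5 Gy, it was 0.40 (adjusted p = 0.0566), and no other NHP ended the call when left out. Without TMM factors it was 0.71 (adjusted p = 0.140). On single days no steady order with RD was seen, since the day 6 medians were 241, 228, 201, 530, 679 and 210 TMM CPM from 6.0 to 8.5 Gy.

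Among the others after irradiation, miR-376a-1-5p had 0.65 per Gy (SE 0.23, adjusted p = 0.0683) at levels of at most 12.8 TMM CPM, and miR-369-3p 0.41 (SE 0.16, adjusted p = 0.093). Slopes were positive in 37 of 44 members, as many as before irradiation, with a median of 0.18 beside 0.02 for all miRNAs. The most negative by p were miR-485-5p (-0.18, adjusted p = 0.685) and miR-433-3p (-0.20, adjusted p = 0.685). Without the day 6 library of RA1782F, the latter was 0.10, and without TMM factors, where the median of all miRNAs moved to 0.27, all 44 slopes were positive. The change from before to after irradiation went with RD in 0 members by adjusted p (edgeR, and 0 by DESeq2) and in 0% of all tested, and in 2 members against 3.10% of all at an unadjusted p under 0.05. These were miR-376a-1-5p, higher, and miR-377-3p, with -0.69 per Gy (SE 0.35, adjusted p = 0.999). miR-381-3p had 0.37 and miR-485-5p -0.49 per Gy in that test (adjusted p = 0.999 for both). A dependence of the change on RD was thus not detected at this depth in any tested member.

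The third question was whether members differed by RRiF. With the 4 libraries of each NHP summed, 0 members and 0% of all tested differed between 21 Deceased and 15 Survived NHPs, and at an unadjusted p under 0.05 the members again gave 0, against 4.48% of all. DESeq2 called 0 members in each of the 3 comparisons by RRiF. The smallest p was that of miR-485-3p, at a median of 15.9 (3.05 to 113) TMM CPM in Deceased and 14.4 (3.77 to 39.6) in Survived. Its log2 (Fold change) was 0.63 (SE 0.37, adjusted p = 0.841). Its ranges overlapped, and with libraries weighing the same its estimate was -0.060. miR-433-3p, known for targeting FGF20 in human cells, had 0.54 (SE 0.32, adjusted p = 0.841). Its medians were 17.8 and 13.4 TMM CPM, and it was highest in RA1782F, a Deceased NHP. On the lower side were miR-337-5p (-0.52) and miR-337-3p (-0.26). The haemolysis score had a median of 4.31 in libraries of Deceased and 3.59 in those of Survived NHPs, and its part in these values was not tested.

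Before irradiation the comparison by RRiF again called 0 members and 0% of all, with 2 members against 6.21% of all at an unadjusted p under 0.05. miR-376a-1-5p was at 0 to 7.76 TMM CPM in Deceased (median 0) and 0 to 20.0 in Survived (median 1.08), and its difference was -1.27 (SE 0.52, adjusted p = 0.615). miR-377-3p was at 0 to 69.6 in Deceased (median 5.46) and 0 to 8.23 in Survived (median 1.5), and its log2 (Fold change) was 0.98 (SE 0.45, adjusted p = 0.615). Both pairs of ranges overlapped. The highest value of miR-377-3p, 69.6, rested on 2 counts in a library of 43377. On the scale of all 144 libraries the same library had 52.2 TMM CPM. miR-376c-3p (0.80) and miR-668 (-0.41) came next in each direction.

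The change from before to after irradiation differed by RRiF in 0 members and 0% of all by adjusted p, and in 2 members against 4.48% of all at an unadjusted p under 0.05. These were again miR-376a-1-5p (1.46, SE 0.60, adjusted p = 0.653) and miR-377-3p (-1.43, SE 0.63, adjusted p = 0.679), each opposite in sign to its own difference before irradiation. The changes and the pre-irradiation levels share the same libraries. miR-376c-3p had -0.94 and miR-485-3p 0.76. From 6.0 to 8.5 Gy, 2, 3, 4, 2, 5 and 5 of 6 NHPs were Deceased, so RD and RRiF cannot be told apart wholly in these fits.

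Most members had a lower estimate in males than in females, and none passed the adjusted threshold. Sex was uneven over RD, and RD was not a term in the main fit by sex. Sex and RD thus cannot be told apart wholly in these values. By sex 0 members and 0% of all tested were called (edgeR, and 0 members by DESeq2). At an unadjusted p under 0.05, 10 members differed, against 19.0% of all, and all 10 were lower in males, against 13.1% of all lower. Estimates were lower in males in 40 of 44 members, beside 171 of 290 miRNAs, and the medians were -0.38 and -0.08. miR-433-3p had the smallest p, at 8.48 to 103 TMM CPM in 17 females (median 22.7) and 3.61 to 36.5 in 19 males (median 13.4). The ranges overlapped, and the log2 (Fold change), males minus females, was -1.01 (SE 0.29, adjusted p = 0.108). Without RA1782F, the highest female, it was -0.79 (adjusted p = 0.252), and without its day 6 library -0.72 (adjusted p = 0.346). Without RA2445M or RA2685M the same miRNA passed, with adjusted p = 0.0299 and 0.032.

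Of the abundant members, miR-409-3p had the smallest p by sex and did not pass. It was at 467 to 1546 TMM CPM in females (median 1113) and 326 to 1448 in males (median 679), and its log2 (Fold change) was -0.56 (SE 0.19, adjusted p = 0.171). miR-127-3p had medians of 469 and 373 TMM CPM with a difference of -0.63 (SE 0.24, adjusted p = 0.229), and miR-485-3p had -0.90 (SE 0.34, adjusted p = 0.229). The other members under an unadjusted p of 0.05 were miR-411-5p (-0.45), miR-543-3p (-0.69), miR-323a-3p (-0.55), miR-134-5p (-0.47), miR-493-5p (-0.67) and miR-758-3p (-1.06). On the other side, miR-376a-3p (0.20) and miR-127-5p (0.18) were higher in males. The share of members lower in males depended on the weighing of libraries. With each library weighing the same it was 30 of 44, with a median of -0.15 and 0 members at an unadjusted p under 0.05, and without the 7 shallow libraries as well it was 37, with a median of -0.27 and 2 members. The haemolysis score had a median of 3.94 in females and 3.71 in males, and miR-486-5p took 73.8% and 71.2% of counts, and their part in the difference was not tested. The summed percent of the cluster had a higher median in the libraries of males (0.508%) than of females (0.396%). Its mean was 0.760% in males and 0.794% in females. Without miR-486-5p in the denominator the medians were 1.61% in males and 1.91% in females, so the direction depended on the summary.

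The last question was whether libraries of one NHP resembled each other beyond TSI. Differences between NHPs were called for 7 members, against 30.7% of all tested (edgeR F test of 35 animal terms, adjusted p under 0.05). They were miR-758-3p (adjusted p = 0.000615), miR-493-5p (0.0113), miR-411-5p (0.0203), miR-127-3p (0.031), miR-668 (0.0342), miR-337-5p (0.0383) and miR-134-5p (0.0451). On the summed counts of an NHP, miR-127-3p ranged from 175 TMM CPM in RA2691M to 2272 in RA1782F (median 460). miR-411-5p ranged from 116 in RA2445M to 773 in RA2265F (median 334). miR-493-5p, known for restraining liver metastasis of colon cancer cells, ranged from 4.28 in RA0724F to 71.2 in RA2116F (median 22.2).

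The highest NHP of a member was not always high throughout. RA1782F, the highest for miR-127-3p, had 264 TMM CPM in its pre-irradiation library and 888, 55.1 and 3187 in those of days 1, 2 and 6, and thus held ranks 24, 2, 35 and 1 of 36. RA2265F had 338, 242, 313 and 785 TMM CPM of miR-411-5p. For miR-758-3p, RA1782F had no count before irradiation and on day 2, 37.0 TMM CPM on day 1 and 58.4 on day 6. RA2116F held ranks 3, 1, 28 and 6 for miR-493-5p and ranks 2, 3, 15 and 8 for miR-668, in which its day 2 library, the lowest in rank, held only 14330 counts. The number of members called was 3 without the 7 shallow libraries, and 3 without RA0724F, RA2691M or RA2700M. It was 11 without RA2733F.

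The day 6 library of RA1782F was chosen for description after its values had been seen. It held 1840802 counts, but only 198 miRNAs had a count in it, against 243 or more in the other 18 libraries with over 1000000 counts. Its cluster profile had a Spearman rho of 0.507 to the median profile, and the next lowest of the 19 deep libraries had 0.871. miR-127-3p stood at 3187 TMM CPM (1691 counts), where the median of day 6 was 393 and the next highest library 1583. miR-323a-3p (113 TMM CPM), miR-485-5p (73.5), miR-758-3p (58.4), miR-411-3p (56.5) and miR-494-3p (20.7) were also the highest of the 36 day 6 libraries. miR-433-3p (160, from 85 counts) and miR-485-3p (170, from 90 counts) were second. The libraries ranked over it were shallow, namely RA2743F (19254 counts in all) for miR-433-3p and RA2445M (24458) for miR-485-3p. At the same time miR-654-3p was at 15.1 (8 counts), where the day 6 median was 569, miR-380-3p at 13.2 against 323.2, miR-381-3p at 33.9 against 257, and miR-411-5p at 30.2 against 199. Members of the same cluster thus stood at opposite ends in one library, in contrast to the co-variation over the 144. The cluster as a whole took 0.134% of its counts.

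**Figure D5:**
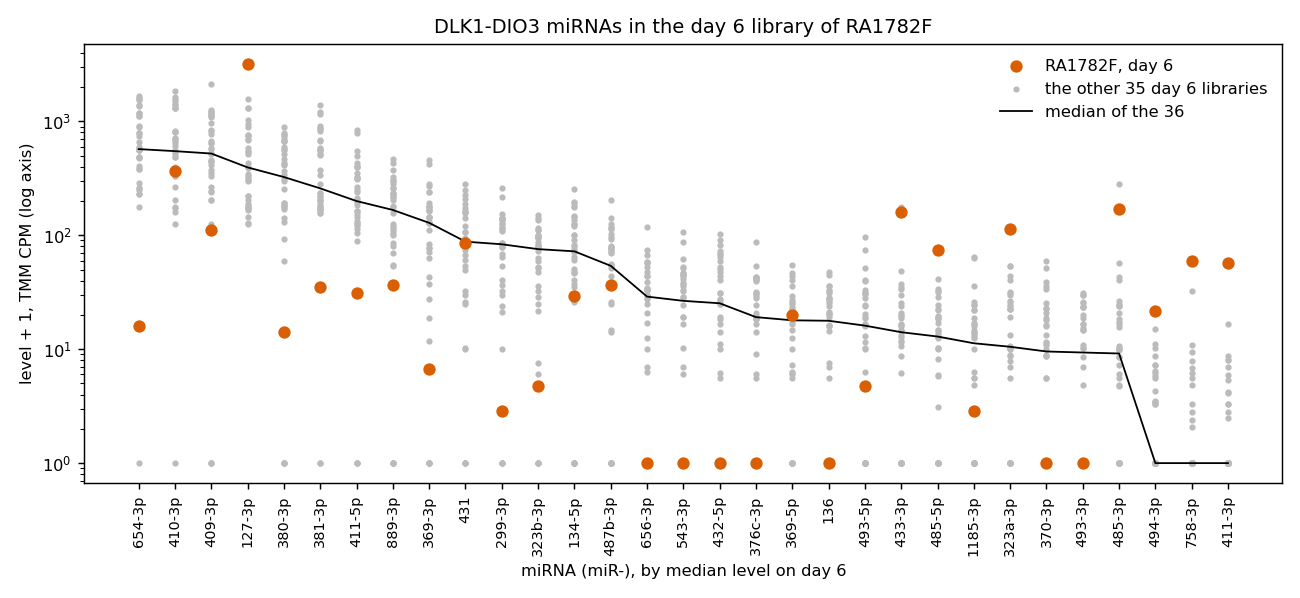
Level + 1 (TMM CPM, log axis) of 31 DLK1-DIO3 miRNAs in the day 6 library of RA1782F (orange) and in the other 35 day 6 libraries (grey), ordered by the day 6 median (line). miR-127-3p (3187), miR-323a-3p (113) and miR-411-3p (56.5) lie over all other libraries, while miR-654-3p (15.1) and miR-380-3p (13.2) lie near the bottom.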

How the data were processed

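Serum miRNAs were measured by small RNA sequencing (TruSeq small RNA libraries, NextSeq 500) in 144 libraries of 36 NHPs. The authors filtered, trimmed and length-selected reads, counted them against macaque miRNAs of miRBase in Genomics Workbench and deposited raw counts per miRNA and library, without normalization. The length limits set which trimmed or extended forms were counted. Groups follow the labels. RA2816M was kept as titled, although the description of its first sample reads RA2616M. The members and lists were chosen with earlier results of these data known.

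The 290 miRNAs seen in 40% of libraries or more were fitted with edgeR 4.0.16 in R 4.3.3 (TMM factors, robust quasi-likelihood F tests), and p was adjusted by Benjamini and Hochberg over all 290 with 0.05 as the threshold. TSI was fitted on 144 libraries without other terms, RD before irradiation and RRiF before irradiation on 36 libraries, changes as interactions on 144 libraries, and levels after irradiation, by RRiF and by sex on raw counts summed per NHP. Some of these fits were also run on simulated counts with known changes. Each miRNA was drawn separately there, without the co-variation seen here, so that run is no measure of their accuracy on these data. The animal was not a block, because the study's model, as its methods list the factors, has no animal term. The fits of TSI and of changes thus treated the 4 libraries of an NHP as independent. With the block, neither day 6 call remained. The same NHPs were bled at all time points, the animal names in the labels pair the libraries, and residuals of libraries of the same NHP correlated with a mean r of 0.0787 (216 pairs), against 0.00996 for other pairs (0.0509 and 0.00623 over the members). Alternatives were other size factors (TMMwsp, RLE, none), other filters (a 60% limit, none), DESeq2 1.42.0, the animal as a block, haemolysis or the other design factors as terms, and leaving out shallow or identical libraries or each NHP. After seeing the data, mean log2 levels per NHP (pseudocount 1, limma) and leaving out the day 6 library of RA1782F were added. Correlations used log2(TMM CPM + 1) in Python 3.11.15. Named members were those called, the 10 most abundant, the 2 with the smallest p per direction and comparison, and some of those the study names. No mature sequences were used here.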

Additional observations from a re-analysis of the deposited data

Results flagged for a closer look

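Each RD group of 6 NHPs was searched for a single value far from the rest (its gap to the nearest value, as a share of the range, over Dixon's 95% limit). Of 54 groups, 9 had one. The limit gives about 1 in 20 by chance for normally distributed values, which these linear, right-skewed levels with many zeros are not, so that rate is no measure of chance here. In all 9 it was the highest value, and the part of depth or haemolysis in them was not tested. Before irradiation, miR-377-3p was at 69.6 TMM CPM in RA2318M at 8.5 Gy, from 2 counts, where the next NHP had 22.0. miR-376a-1-5p before irradiation was at 20.0 TMM CPM in RA2576M at 6.5 Gy (17 counts) and at 10.8 in RA2021F at 7.0 Gy (6 counts). In the summed counts of days 1, 2 and 6, miR-381-3p was at 840 TMM CPM in RA2265F at 7.0 Gy, with 815 of its counts from day 6, and the next NHP had 426. miR-485-5p was at 76.7 in RA1782F at 6.5 Gy and at 20.4 in RA2745F at 7.5 Gy. miR-433-3p was at 33.7 in RA0521F at 6.0 Gy and at 161 in RA1782F at 6.5 Gy, where the next NHP had 19.2. Both values of RA1782F came from its day 6 library. The summed cluster took 1.97% of the counts of days 1, 2 and 6 in RA2284F at 7.0 Gy, where the next NHP had 0.822%.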

How the results depend on the processing

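Depth limited the sparse members, since only 17 of the 78 had a count in at least 80% of libraries. Without TMM factors the median of all miRNAs moved by over 0.1 on day 2, on day 6, by RD before and after irradiation and by RRiF, so directions of the cluster are relative to the scaling. On day 6 the 2 called members became 1 with TMMwsp or RLE factors, the 60% filter, no filter, DESeq2, the haemolysis score as a term, or without the shallow libraries, the identical libraries or the day 6 library of RA1782F, and 0 without TMM factors, with the 4-factor model or with the animal as a block. Leaving out 1 NHP gave 0 to 2, with 2 kept only without RA0521F, RA2689M, RA2694M or RA2733F. The block (the pairing of libraries by animal) changed no other call. No filter called 2 members lower on day 2.

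By RD after irradiation 1 call became 0 without TMM factors and with either equal weighing of libraries, and 2 without a filter or with DESeq2. Leaving out 1 NHP gave 0 (RA2116F) to 3 (RA0521F), and 2 without RA0529F, RA2576M, RA2598M, RA2691M or RA2694M. By sex, leaving out RA2445M or RA2685M gave 1 call and all others 0. Differences between NHPs gave 4 without TMM factors, 21 without a filter, 12 with DESeq2 and 3 without the shallow libraries, and 3 to 11 with 1 NHP left out. The median cluster share was 1.84% without miR-486-5p in the denominator, and the median rho of member pairs 0.88 without TMM factors.

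Directions turned as follows. Without TMM factors, miR-1185-3p was -0.076 on day 2, miR-127-3p -0.14 on day 6, and by RD after irradiation miR-485-5p 0.069 and miR-433-3p 0.24. With equal weighing, by RD miR-381-3p was -0.015 and miR-433-3p 0.044, and miR-485-5p was 0.00050 without the shallow libraries as well. By RRiF miR-485-3p was -0.060, and -0.059 without the shallow libraries as well. Without the day 6 library of RA1782F, miR-433-3p by RD was 0.10. With 1 NHP left out, miR-1185-3p on day 2 ran from -0.0024 (RA0521F) to 0.24, miR-433-3p by RD from -0.30 to 0.074 (RA1782F), and by sex miR-127-5p from -0.014 (RA1938M) to 0.29 and miR-376a-3p from -0.0017 (RA2318M) to 0.33.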
